A study of Mus musculus with 16 samples.

Results

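Interferon stimulated genes are the transcripts that a cell switches on after it has sensed an interferon. The 33 members described here were taken by gene symbol from the gene tables of a mouse pancreatic cancer organoid series, and all 33 of 33 were found among the 55487 genes of those tables. They fall into transcription factors of the pathway (Irf1, Irf7, Irf9, Stat2), sensors of foreign nucleic acid (Ddx58, Ifih1, Dhx58, Zbp1), the ubiquitin-like protein Isg15 and its protease Usp18, the IFIT (Ifit1, Ifit2, Ifit3), OAS (Oas1a, Oas2, Oasl2) and GBP (Gbp2, Gbp3) families, the antiviral proteins Mx1, Mx2, Rsad2 and Bst2, the complex of Dtx3l with Parp9 and its relative Parp14, the DNA-binding HIN-200 family (Ifi203, Ifi204, Ifi205, Ifi211), and Cxcl10, Ifi27l2a, Ifi35 and Ifi44. Members were taken by name, with no cutoff on their values, although earlier results of these data were known when the list was drawn up.

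The samples were 16 organoid lines from 6 mice of the KPC model of pancreatic ductal adenocarcinoma, in which tumors start after a Cre recombinase has switched on engineered alleles in the pancreas. The labels give the strain as C57BL6/J for all lines. Organoids are epithelial cultures grown in domes of Matrigel, a gel of basement membrane proteins. All lines shared a medium with EGF, FGF-10, noggin, gastrin, R-spondin and the TGF-beta receptor inhibitor A83-01, and the labels name no added interferon. The tumor group held 7 lines, 1 from each of mice 1 to 5 and 2 from mouse 6. The metastasis group held 9 lines: liver (line 1) from mouse 1, peritoneum (line 9) from mouse 2, peritoneum (line 2) from mouse 3, peritoneum (line 3) from mouse 4, diaphragm (line 4) and lung (line 5) from mouse 5, and liver (line 6), diaphragm (line 7) and ovary (line 8) from mouse 6. Lines of 1 mouse share that animal, so p-values measure in part the spread between lines rather than between animals.

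Interferons bind paired receptors on the cell surface. The receptors pass the signal through Janus kinases to transcription factors, among them Stat2, which acts with Irf9 on a DNA element called the interferon-stimulated response element, ISRE. Type II interferon acts through the gamma-activated site, GAS. Some of the induced genes block viral replication, some detect viral RNA or cytosolic DNA, and some, such as Usp18, switch the receptor signal off again. A low standing level of these genes without added interferon is known as tonic signaling.

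Promoter windows from RefSeq on GRCm38.p6, running from 250 bases before to 50 bases after a gene's start, could be matched for 23 of the 33 members. The ISRE letters GAAANNGAAA, or TTTCNNTTTC when read from the opposite strand, occurred in 15 of these 23 members (65.2%), against 1079 of 27025 genes with a window (3.99%). The palindromic GAS letters TTCNNNGAA occurred in 5 of 23 members (21.7%), against 9.55% of all genes with a window. A match of letters describes the sequence and is not evidence of binding. The stretches below run 5′ to 3′ on each gene's strand, from 150 bases before to 50 bases after its start, with ISRE matches in capitals. Isg15 and Ifit1 are shown because they carry several matches, and Isg15 is on chr4:156200769-156200968 (minus strand) and Ifit1 on chr19:34640739-34640938 (plus strand).
Isg15: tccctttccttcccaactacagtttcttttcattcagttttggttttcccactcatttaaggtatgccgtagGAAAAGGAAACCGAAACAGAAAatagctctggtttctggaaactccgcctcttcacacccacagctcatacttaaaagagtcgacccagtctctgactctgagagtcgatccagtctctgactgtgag
Ifit1: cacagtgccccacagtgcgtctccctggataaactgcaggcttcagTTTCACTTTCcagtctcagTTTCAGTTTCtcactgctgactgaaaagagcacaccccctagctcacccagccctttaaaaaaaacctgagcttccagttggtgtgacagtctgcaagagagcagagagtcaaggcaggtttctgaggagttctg
Matches in Isg15 began 78, 72 and 66 bases before the start and overlap one another, while those in Ifit1 began 104 and 85 bases before it.

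Ifi211, Ifi203 and Ifi205 are shown as neighbors of the HIN-200 cluster, whose levels differed by stage as described further on. Their stretches are chr1:173912997-173913196, chr1:173942443-173942642 and chr1:174031706-174031905, all on the minus strand.
Ifi211: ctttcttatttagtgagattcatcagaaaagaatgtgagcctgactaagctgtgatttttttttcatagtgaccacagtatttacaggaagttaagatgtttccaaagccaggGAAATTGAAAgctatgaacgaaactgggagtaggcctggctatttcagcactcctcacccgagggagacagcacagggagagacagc
Ifi203: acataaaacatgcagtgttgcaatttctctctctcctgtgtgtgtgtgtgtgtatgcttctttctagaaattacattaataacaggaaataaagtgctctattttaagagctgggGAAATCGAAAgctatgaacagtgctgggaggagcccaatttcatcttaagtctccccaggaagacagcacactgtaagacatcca
Ifi205: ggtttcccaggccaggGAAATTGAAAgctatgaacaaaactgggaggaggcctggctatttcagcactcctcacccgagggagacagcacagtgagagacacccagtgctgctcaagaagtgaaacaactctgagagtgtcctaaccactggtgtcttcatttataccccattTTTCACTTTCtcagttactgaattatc
A match began 37 bases before the start in Ifi211 and 35 bases before it in Ifi203. Ifi205 had a match 134 bases before and another 23 bases after its start. A second start of Ifi203 had no match in its window.

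Ifit2 and Ifih1 are shown because both were lower in metastasis lines. The stretches are chr19:34550544-34550743 and chr19:34550938-34551137 on the plus strand for the 2 annotated starts of Ifit2, and chr2:62646206-62646405 on the minus strand for Ifih1.
Ifit2, start 1: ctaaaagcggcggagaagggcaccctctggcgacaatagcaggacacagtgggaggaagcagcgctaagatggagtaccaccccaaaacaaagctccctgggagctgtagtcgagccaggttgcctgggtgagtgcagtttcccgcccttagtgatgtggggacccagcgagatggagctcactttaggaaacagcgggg
Ifit2, start 2: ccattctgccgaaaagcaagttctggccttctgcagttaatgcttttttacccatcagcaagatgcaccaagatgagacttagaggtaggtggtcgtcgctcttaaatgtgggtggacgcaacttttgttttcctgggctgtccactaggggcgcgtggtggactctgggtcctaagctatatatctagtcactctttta
Ifih1: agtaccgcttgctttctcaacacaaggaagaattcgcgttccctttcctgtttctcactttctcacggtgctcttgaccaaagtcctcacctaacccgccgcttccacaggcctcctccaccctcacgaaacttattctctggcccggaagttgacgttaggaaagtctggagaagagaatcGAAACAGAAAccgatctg
The single match in Ifih1 lay 32 bases after its start. Neither window of Ifit2 held the ISRE letters, which says only that these letters are not in these stretches.

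Across the series, total expected counts without 3 genes that capture ribosomal RNA (CT010467.1, AY036118 and Lars2) ran from 6721988 in metastasis line 4 to 49935634 in tumor line 1. Those 3 genes took 72.7% of the counts of metastasis line 4, 29.9% of tumor line 2, between 12.3% and 18.5% of metastasis lines 2, 3, 8 and 9, and at most 4.16% of the other lines. Metastasis line 4 is therefore the shallowest library for the members. Tumor line 6 stood apart from the other tumor lines in targets of p53, with Ccng1 at 118 CPM against 538 to 967 CPM in the other 6 tumor lines, and the highest metastasis line was at 120 CPM. CPM, a count scaled for library depth, was computed on TMM-scaled library sizes. The epithelial and duct markers Epcam, Krt8, Krt18, Krt19, Cdh1 and Sox9 passed the count filter, with Epcam at 334 CPM on average in tumor lines and 397 in metastasis lines and Krt8 at 1538 and 1719, while 7 immune markers summed to 1.53 to 5.31 CPM, with Siglech at 0 counts in all lines and Ptprc at no more than 0.832 CPM.

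Most members were expressed at a low level. Median TPM over the 16 lines, a scale that accounts for transcript length, was under 1 for 22 of 33 members, from 1 to under 5 for 7 and at least 5 for 4. The 4 highest were Bst2, a membrane tether of budding virions, at 28.4 TPM, Ifi35 at 12.9, the transcription factor Irf1 at 12.8 and the ADP-ribosyltransferase family member Parp9 at 5.24. At the other end Ifi203 and Ifi205 had a median of 0 TPM, Ifi44 0.005 and the Z-form nucleic acid sensor Zbp1 0.010. Isg15, which is strongly induced by interferon in most cells, stood at a median of 0.425 TPM. In CPM, 11 members were at 1 or more in all 16 lines, and 8 were under 1 in all 16. Of the 33 members, 19 passed the count filter and entered the tests, and 14 did not.

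**Figure D1:**
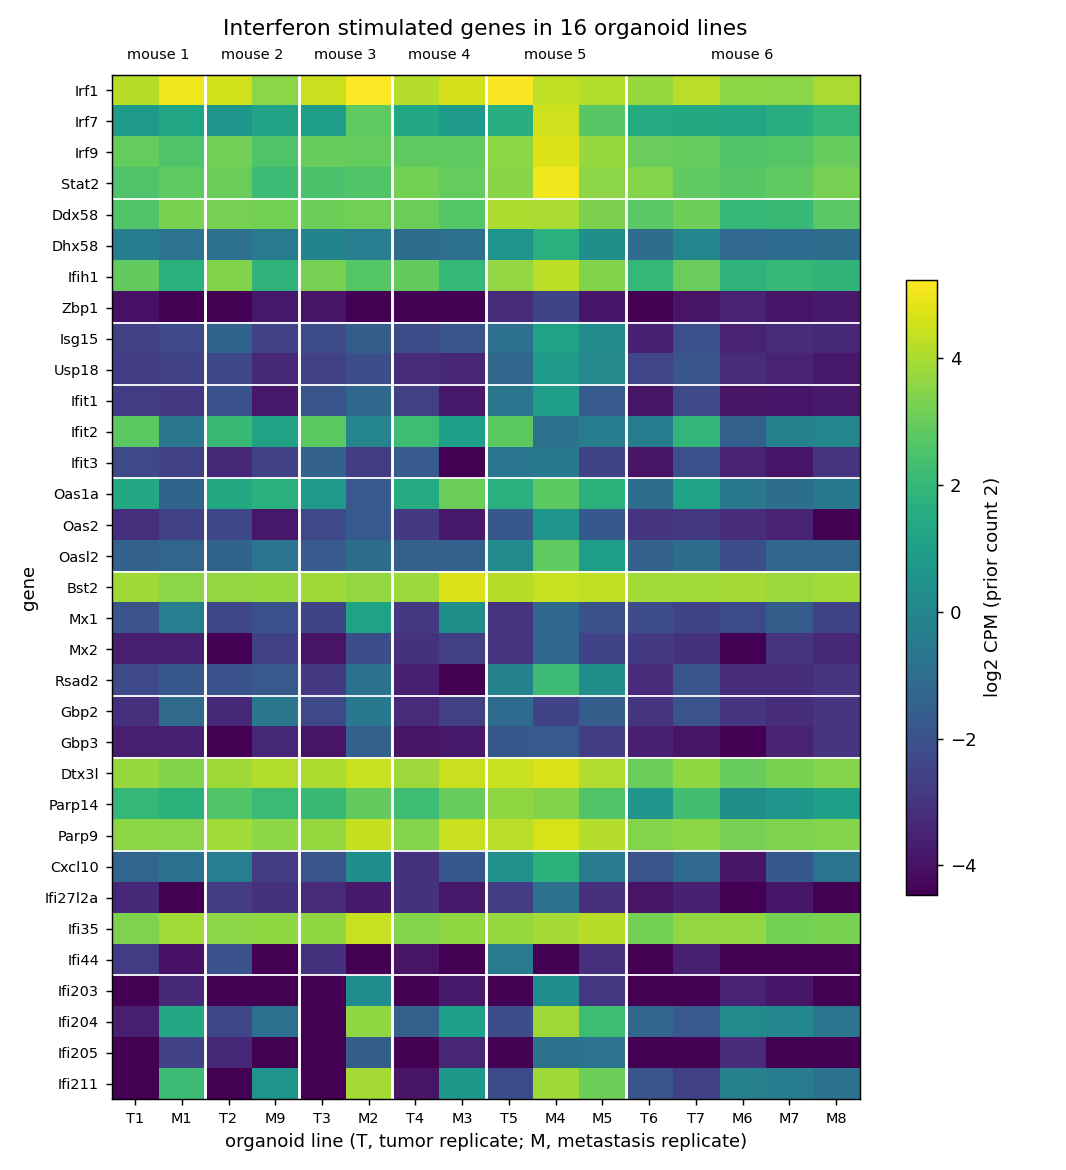
Log2 CPM with a prior count of 2 for the 33 members (rows, grouped by role) in the 16 organoid lines (columns, grouped by mouse; T is a tumor line and M a metastasis line). Bst2, Irf1, Ifi35, Parp9 and Dtx3l are bright in all lines, and the HIN-200 rows at the bottom are dark in all 7 tumor lines.

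Metastasis lines differed from tumor lines of the same mice in 4 of the 19 members tested (edgeR's quasi-likelihood test with a term per mouse, Benjamini-Hochberg adjusted p under 0.05 over 15573 genes). The share of all tested genes called was 16.5%. Ifit2 and Ifih1 were lower, 2 of 19 members against 9.92% of all tested genes. Ifi211 and Ifi204 were higher, 2 of 19 against 6.59%, but both entered the tested set through their metastasis lines, so that count is partly fixed by the filter and supports nothing. The median log2 fold change of the 19 members was 0.09 against -0.02 over all tested genes. Under DESeq2 the same 4 members were called, among 3968 genes. In limma on log2(TPM + 1), Ifit2, Ifi204 and Ifi211 were called, among 1184 genes.

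Ifit2, an RNA-binding protein that slows translation of viral messages, was the most strongly lowered member. Its tumor lines 1 to 7 measured 6.91, 4.13, 6.87, 4.62, 6.93, 0.745 and 3.69 CPM. The metastasis lines 1 to 9 measured 0.609, 0.912, 2.00, 0.517, 0.721, 0.301, 0.815, 0.946 and 2.12 CPM. Of the tumor lines, 6 lay above every metastasis line, and tumor line 6, the line that stood apart in p53 targets, lay among the metastasis lines. The means were 4.84 ± 2.29 CPM (SD, n = 7) and 0.993 ± 0.636 (SD, n = 9). In edgeR's fit the log2 fold change was -2.24 ± 0.44 (SE) with an adjusted p of 0.00847, and the level was lower in 6 of 6 mice. The call was lost only without mouse 5, at an adjusted p of 0.0517. Ifit1 and Ifit3, its neighbors on chromosome 19, were below the count filter, at no more than 1.94 and 0.646 CPM in any line.

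Ifih1 encodes MDA5, a cytosolic sensor of long double-stranded RNA. Tumor lines 1 to 7 measured 7.52, 10.5, 9.44, 7.50, 12.7, 3.96 and 8.15 CPM. Metastasis lines 1 to 9 measured 3.26, 6.33, 3.94, 19.0, 10.4, 3.51, 3.97, 3.63 and 3.53 CPM. The groups overlapped: both metastasis lines of mouse 5 were above most tumor lines, and tumor line 6 was the lowest tumor line. Means were 8.54 ± 2.74 CPM (SD, n = 7) for tumor and 6.39 ± 5.25 (SD, n = 9) for metastasis lines. The log2 fold change within mice was -0.75 ± 0.23 (SE; edgeR adjusted p = 0.0465), and 5 of 6 mice had the lower level in metastasis lines. It is the least stable of the 4 calls, passing in 11 of 32 alternative settings, with adjusted p up to 0.472 in the fit without the mouse terms. Leaving out a single line ended the call for tumor lines 1, 2, 3, 4 and 7 and for metastasis lines 1, 2, 3, 5, 6, 7, 8 and 9, with adjusted p from 0.0645 to 0.114, as did leaving out mouse 1, 2, 3, 4 or 6. The related sensors moved less: Ddx58, which encodes RIG-I, had a log2 fold change of -0.21 (adjusted p = 0.478) and Dhx58, which encodes LGP2, one of -0.15 (adjusted p = 0.744).

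**Figure D2:**
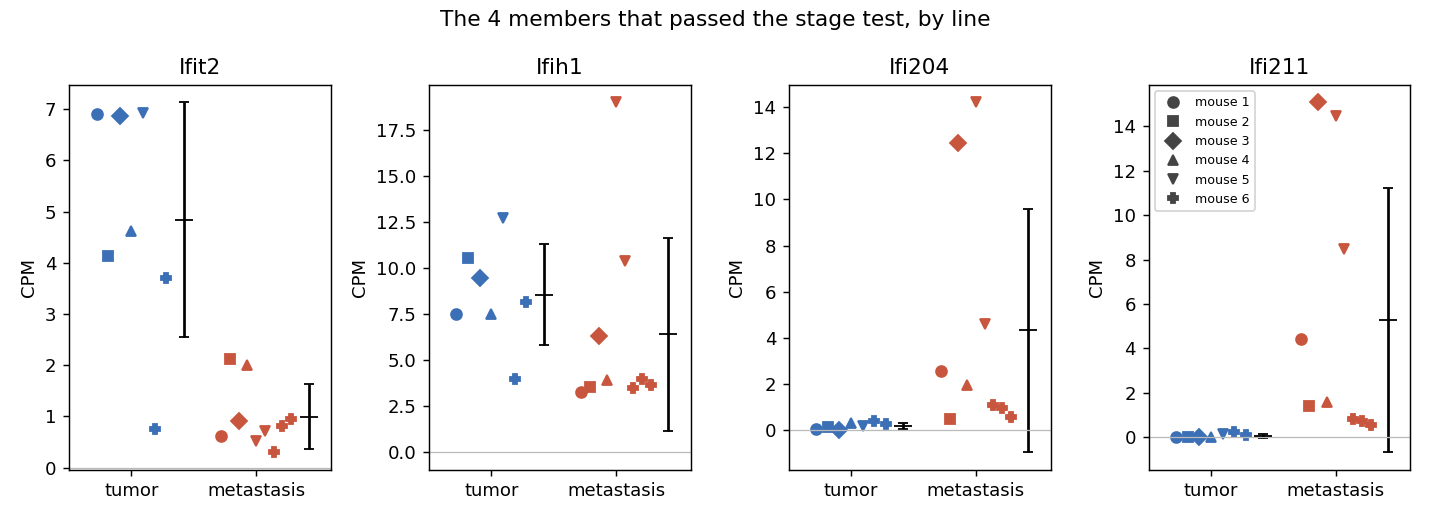
CPM of Ifit2, Ifih1, Ifi204 and Ifi211 in each line, with tumor lines in blue and metastasis lines in red, marker shapes for the 6 mice, and black bars for the mean ± SD of 7 tumor and 9 metastasis lines. Ifi204 and Ifi211 lie at 0.373 CPM or less in all tumor lines and at 0.479 CPM or more in all metastasis lines, while Ifit2 and Ifih1 overlap between the groups.

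The HIN-200 family was the part of the list with the widest difference. These proteins pair a DNA-binding HIN domain with a pyrin domain and lie side by side in a cluster on chromosome 1. Ifi211 measured 0, 0, 0, 0.0192, 0.159, 0.216 and 0.115 CPM in tumor lines 1 to 7. In metastasis lines 1 to 9 it measured 4.44, 15.1, 1.57, 14.5, 8.50, 0.802, 0.713, 0.526 and 1.41 CPM. No tumor line reached the lowest metastasis line. Counts of 0 in tumor lines 1, 2 and 3 allow up to 0.0517, 0.151 and 0.0578 CPM (3 counts), for counting error only. The log2 fold change in edgeR's fit was 5.22 ± 1.04 (SE; adjusted p = 0.00870), with the level higher in 6 of 6 mice. As it depends on how zeros are treated, the summed counts are a plainer measure: 26 counts in 7 tumor lines against 1552 in 9 metastasis lines, a ratio per scaled library of 54.4 (95% counting interval 37.0 to 83.5).

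Ifi204, also known as a sensor of cytosolic DNA, followed the same order of groups. It measured 0.0345, 0.151, 0, 0.308, 0.179, 0.373 and 0.249 CPM in tumor lines 1 to 7. The metastasis lines 1 to 9 measured 2.58, 12.4, 1.97, 14.2, 4.59, 1.08, 0.978, 0.552 and 0.479 CPM. The groups did not overlap, although metastasis line 9 exceeded the highest tumor line by little. The log2 fold change was 3.51 ± 0.94 (SE; edgeR adjusted p = 0.0280), higher in 6 of 6 mice, and the summed counts were 62 against 1170, a ratio of 17.2 (95% counting interval 13.3 to 22.6). The call did not hold without tumor line 1, tumor line 5, metastasis line 1 or metastasis line 3, nor without mouse 1, 4 or 5, nor without the 2 libraries richest in ribosomal RNA (adjusted p from 0.0505 to 0.0921). Ifi211 and Ifi204 were the only 2 of the 19 tested members whose tumor and metastasis lines did not overlap, as in 1.12% of all tested genes. Both passed the count filter through the metastasis lines, where they are high, so this is a description only.

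The other genes of the cluster were too low for the test. Ifi203 had 0 counts in the 7 tumor lines and 64 in the metastasis lines, at least 19.4-fold higher when 3 counts over the tumor group are taken as the floor. Of those 64 counts, 44 came from metastasis line 2 and 9 from metastasis line 4. Ifi205 had 1 count against 52, a ratio of 47.4 with a wide 95% counting interval of 8.14 to 1907. A pair of non-members in the cluster, chosen after their values were seen, had 0 counts in tumor lines: Mndal with 55 metastasis counts (at least 16.7-fold) and Ifi209 with 58 (at least 17.6-fold), on the same floor. Ifi207, Ifi208 and Ifi202b each had 1 count in all lines together, so the difference did not extend measurably to every gene of the cluster. The olfactory receptor genes next to the cluster stayed at or under 0.0504 CPM in every line. The median log2 fold change of all tested genes of chromosome 1 was 0.02.

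Reads of these neighbors are hard to assign. Of the 50-base words in Ifi211 transcripts, 72.8% also occur in another gene, most often Ifi205, as do 20% of those of Ifi204, 18.6% of Ifi205 and 12.2% of Ifi203, and Mndal overlaps Ifi203 on the same strand. The split of counts between the 4 members is therefore uncertain. Their sum does not depend on that split, but it can be affected by words shared with other genes. Ifi203, for example, shares 8.85% of its words with the pseudogene Ifi203-ps. How much of the sharing lies outside the 4 members was not computed. Summed over the 4 members, tumor lines held 0 to 0.588 CPM. The metastasis lines held 1.08 to 30.3 CPM, with the order line 4 (30.3), line 2 (28.9), line 5 (13.7), line 1 (7.19), line 3 (3.61), line 6 (1.99), line 9 (1.89), line 7 (1.71) and line 8 (1.08). The 3 lines of mouse 6 were among the 4 lowest metastasis lines. Metastasis lines 4 and 2 are also the metastasis libraries richest in ribosomal RNA, at 72.7% and 18.5%, while metastasis line 5 had 4.16% and metastasis line 6 had 0.0185%. In edgeR's fit without metastasis line 4 and tumor line 2, the 2 libraries richest in ribosomal RNA, the adjusted p was 0.0463 for Ifi211 and 0.0679 for Ifi204. With the ribosomal RNA share as a covariate, a setting chosen after the data were seen, it was 0.0191 and 0.0408. Beyond these fits the part of ribosomal RNA in the result was not tested.

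Markers of other cell types are given beside these genes, since HIN-200 genes are known for their expression in leukocytes. Of the 7 markers only Cd68 passed the count filter, with a log2 fold change of 0.66 (edgeR adjusted p = 0.219). The sum of the 7 was 1.53 to 4.55 CPM in tumor lines and 2.07 to 5.31 in metastasis lines, and its lowest metastasis value, 2.07 CPM, was in metastasis line 4, where the sum of the 4 members was highest. Siglech had 0 counts in all lines, and Cd3e had 0 in tumor lines and at most 0.0238 CPM in metastasis lines. Most of the sum was Cd68, and other markers went in both directions. Csf1r, a macrophage receptor, summed to 136 counts over the tumor lines against 38 over the metastasis lines. Ptprc, the pan-leukocyte antigen CD45, was at 0 to 0.069 CPM in tumor lines, from 15 counts in all, and 0 to 0.832 CPM in metastasis lines, from 109 counts. Its highest line was metastasis line 9, one of the lowest of the metastasis lines for the 4 members, and metastasis line 6 had 0 Ptprc counts with 99 counts of the 4 members. None of 5 fibroblast and 3 endothelial markers passed the filter. The fibroblast sum was 0.0385 to 0.230 CPM in tumor lines and 0.100 to 0.775 in metastasis lines, and it was highest in metastasis lines 4 (0.775), 2 (0.599) and 5 (0.568), the 3 lines that were also highest for the 4 members. Dcn, a defining fibroblast gene, had 1 count in the tumor lines and 0 in the metastasis lines, too few to compare. Col1a2 had 11 counts in tumor and 59 in metastasis lines (higher in 5 of 6 mice), and Pdgfrb 1 and 18. Col1a1 went the other way, with 21 and 9 counts. The endothelial sum was 0.0192 to 0.392 CPM in tumor lines and 0.156 to 0.408 in metastasis lines. Ptprc, Pdgfra (a fibroblast receptor) and Kdr (an endothelial receptor) were each higher on average in the metastasis lines of 6 of 6 mice, and Csf1r was lower in 6 of 6. The part of such cells in the result was not tested. In bulk RNA, more expressing cells and more RNA per cell cannot be told apart.

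**Figure D3:**
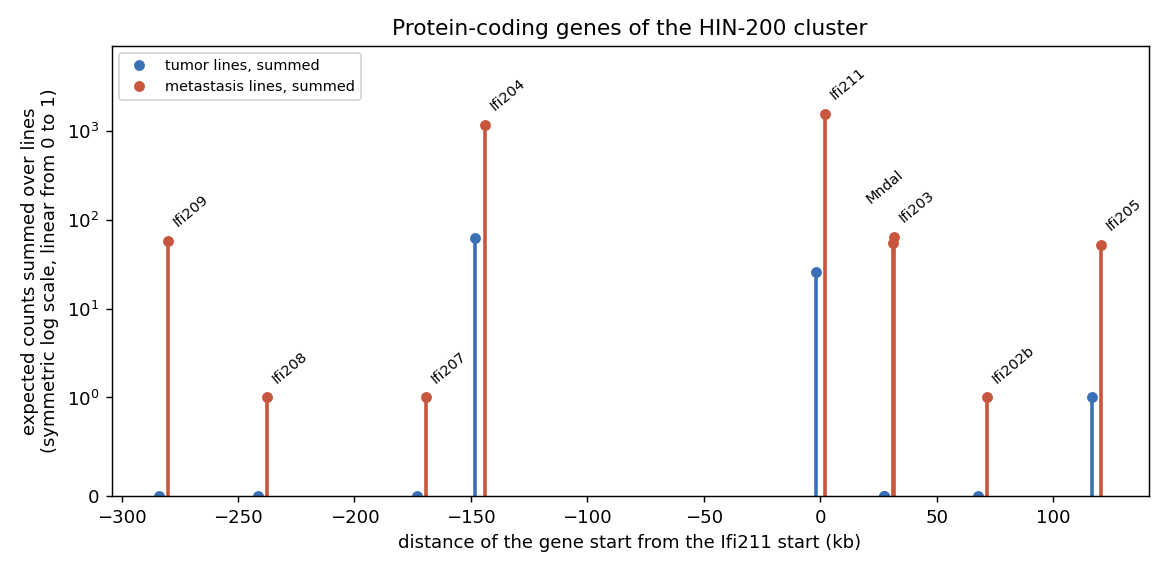
Expected counts summed over 7 tumor lines (blue) and 9 metastasis lines (red) for protein-coding genes of the HIN-200 cluster, placed by the distance of each gene's start from the Ifi211 start in kb, on a symmetric log scale that is linear from 0 to 1. Blue points are drawn slightly to the left of red ones. Ifi204 and Ifi211 carry most of the counts, and Mndal and Ifi203 share nearly the same start.

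**Figure D4:**
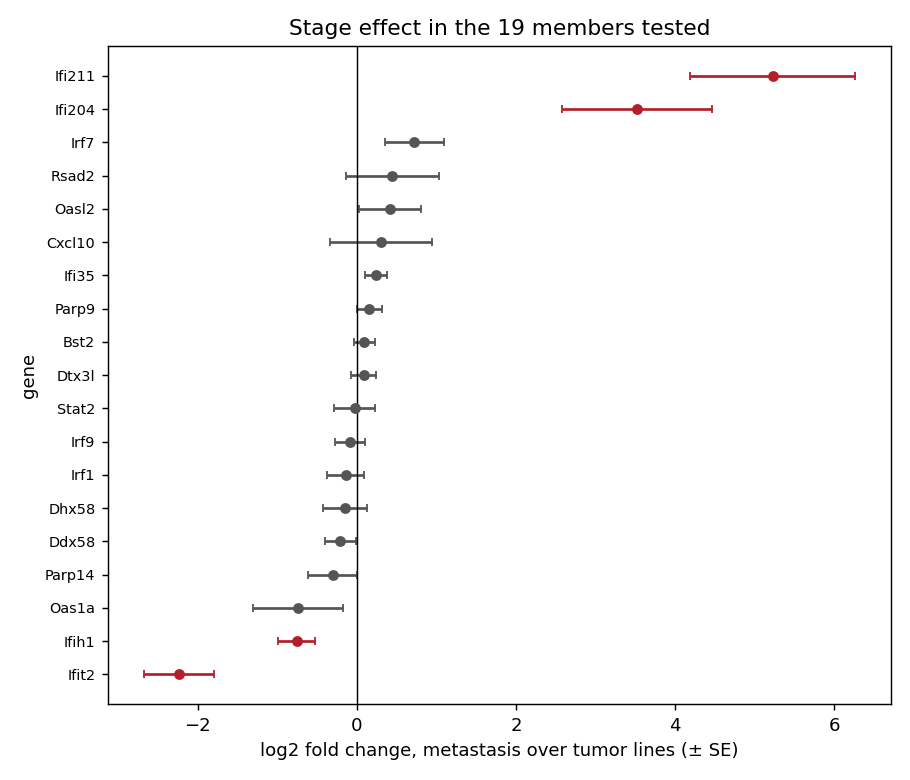
Log2 fold change of metastasis over tumor lines from edgeR's fit with a term per mouse, ± SE, for the 19 members tested, with the 4 members past an adjusted p of 0.05 in red. The other 15 lie between -0.74 (Oas1a) and 0.72 (Irf7).

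No other member passed. Among the transcription factors, Irf7, which amplifies the response, had a log2 fold change of 0.72 ± 0.37 (SE; edgeR adjusted p = 0.197) and was higher in 5 of 6 mice. Stat2, Irf9 and Irf1 had -0.03, -0.09 and -0.14. The ubiquitin ligase Dtx3l and its partner Parp9 had 0.09 and 0.16, with the caveat that their exons overlap on opposite strands and the strand setting of the counting is not given in the sources used here. The same caveat holds for 9 of the 33 members, whose exons overlap a gene on the other strand, among them Irf7, Irf1 and Usp18. Exons of Irf9 overlap those of Rnf31 on the same strand. Bst2 had 0.09 (adjusted p = 0.655) with tumor lines at 12.7, 14.4 and 18.3 CPM (lowest, median, highest) and metastasis lines at 11.7, 14.9 and 26.6. Oas1a, a synthase of the 2-5A messenger that activates RNase L, had -0.74 ± 0.57 (SE; adjusted p = 0.391), and 57.6% of its 50-base words also occur in Oas1g. Oasl2 and Rsad2, the latter encoding viperin, had 0.41 and 0.45, with adjusted p of 0.489 and 0.629 in edgeR's fit. Missing the threshold does not show that these levels were equal.

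The mean log2 CPM over all 33 members overlapped between the stages. Tumor lines ran from -0.966 to 0.398 and metastasis lines from -1.07 to 1.64. Averaged within each mouse, metastasis minus tumor was 0.33, -0.0334, 1.11, 0.295, 0.72 and -0.262 in mice 1 to 6, a mean of 0.359 ± 0.496 (SD, n = 6 mice) with 4 of 6 mice higher. The HIN-200 genes made up most of that mean. Their own average differed by 3.11 ± 1.94 (SD, n = 6 mice), higher in 6 of 6 mice, and without those 4 members the mean over 29 members was -0.02 ± 0.311, higher in 3 of 6. The average of the 3 IFIT genes differed by -1.16 ± 0.383 (SD, n = 6 mice), lower in 6 of 6 mice, but of the 3 only Ifit2 was tested. Ifit1 had a mean of 0.200 CPM in tumor and 0.310 in metastasis lines and was higher in 2 of 6 mice, and Ifit3 had 0.230 and 0.141 and was higher in 1 of 6. The transcription factors averaged 0.147 ± 0.46 and the complex of Dtx3l and the PARPs 0.0989 ± 0.494 on the same scale.

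**Figure D5:**
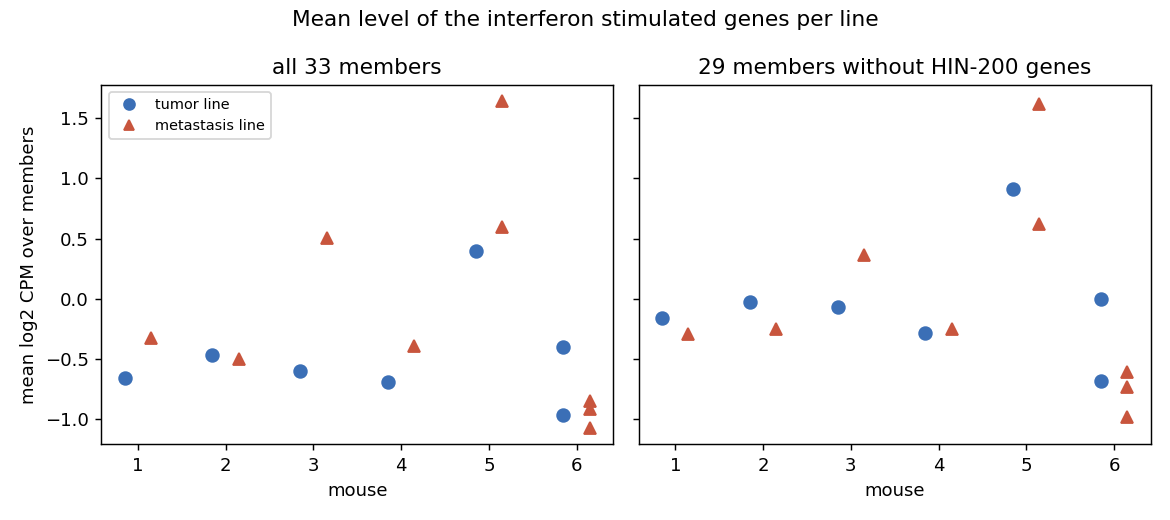
Mean log2 CPM per line over all 33 members (left) and over the 29 members outside the HIN-200 family (right), by mouse, with tumor lines as blue circles and metastasis lines as red triangles. Mouse 5 holds the highest tumor line and the highest metastasis line in both panels, and the metastasis lines of mouse 6 are the lowest metastasis lines.

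Many of the highest values were in lines of mouse 5. Tumor line 5 was the highest of the 7 tumor lines for 26 of 33 members, and for 17 of the 19 tested, against 16.7% of all tested genes. That library was deep, with 0.272% of its counts from the ribosomal RNA genes. Metastasis line 4, also from mouse 5, was the highest of all 16 lines for 20 of 33 members and for 11 of the 19 tested, against 10.7% of all tested genes. With metastasis line 4 set aside, the highest of the remaining 15 lines was a line of mouse 5 for 17 of 33 members and for 10 of the 19 tested, against 19.2% of all tested genes. On TPM as deposited, metastasis line 4 was the highest for 5 members and mouse 5 for 23. Since ribosomal RNA takes 69.8% of the TPM of that library, rescaling without the 3 ribosomal RNA genes gave 20 and 24. These counts describe lines picked for their level and were not tested as groups.

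The transcription factors show how far these lines stood apart. The levels of metastasis line 4 in this and the next paragraphs come from the library with 72.7% of its counts in ribosomal RNA genes, whose part in them was not tested. Stat2 stood at 32.5 CPM in metastasis line 4 (252 counts, 95% counting interval 28.6 to 36.8), and between 4.46 and 11.5 CPM in the other 15 lines. The highest of those 15 were the other lines of mouse 5, metastasis line 5 at 11.5 and tumor line 5 at 11.3. Irf9 was at 26.5 CPM in metastasis line 4, 13.4 in metastasis line 5 and 11.9 in tumor line 5, and at 5.92 to 8.86 in the 13 lines of the other mice. All 3 lines of mouse 5 were thus above every line of the other mice for Irf9. Irf7 was at 23.4 CPM in metastasis line 4 (95% counting interval 20.1 to 27.0), 7.14 in metastasis line 2 of mouse 3 and 6.60 in metastasis line 5, and at 1.51 to 4.10 in the rest, tumor line 5 included at 3.02.

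The effector genes followed at much lower levels. Isg15 was at 2.20 CPM in metastasis line 4 from 17 counts (95% counting interval 1.28 to 3.51), 1.07 in metastasis line 5 and 0.476 in tumor line 5, and at 0.0392 to 0.352 elsewhere. Usp18, the protease that removes Isg15 and damps the receptor, was at 1.81, 1.03 and 0.377 CPM in the same lines and at 0.0263 to 0.230 elsewhere. Both genes thus ranked the 3 lines of mouse 5 above all others by measured level. For Isg15 the third place is within counting error. The 95% counting interval was 0.305 to 0.709 CPM in tumor line 5, and 0.142 to 0.726 in tumor line 2 from 7 counts. Ifit1 was at 1.94 CPM in metastasis line 4 (15 counts, 1.08 to 3.19) and 0.596 in tumor line 5, but at 0.262 in metastasis line 5, below the 0.391 of metastasis line 2. Oasl2 was at 7.23, 1.92 and 1.05 CPM in metastasis line 4, metastasis line 5 and tumor line 5, and at 0.180 to 0.554 elsewhere. Rsad2 was at 4.52, 1.20 and 0.834 CPM in those lines, and at 0 to 0.521 elsewhere.

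Some members did not go with every line of mouse 5. Ifit2 was at 0.517 CPM in metastasis line 4, from 4 counts, the second lowest of all lines. In tumor line 5 it was at 6.93 CPM, the highest of all lines. Gbp2, a GTPase that attacks pathogen membranes and responds mainly to interferon gamma, stayed at or under 0.625 CPM everywhere. Its tumor lines ran from 0.0504 through a median of 0.0784 to 0.437, the last in tumor line 5. Its metastasis lines ran from 0.0611 through 0.129 to 0.625, with the highest in metastasis lines 2 and 9. Dtx3l ran from 7.76 to 26.3 CPM, the highest again in metastasis line 4 and the lowest in metastasis line 6, with the 5 lines of mouse 6 between 7.76 and 12.4.

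A test of the mouse terms, with stage in the fit, called 0 of the 19 members after adjustment over all genes, where it called 0.154% of all tested genes. Before adjustment 12 of 19 members had p under 0.05 in edgeR, against 2661 of 15573 genes, and 5 of 19 did in limma on log2(TPM + 1), against 995 of 15573 genes. After adjustment limma called 0 of 19 members and 28 genes. The lowest edgeR adjusted p were 0.0786 for Oasl2, 0.0795 for Rsad2, 0.132 for Ifih1 and 0.133 for Irf9. The count rose to 4 members when tumor line 7 was left out and to 1 without tumor line 5.

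No member differed detectably between the organs of the metastases. A test of equal effects over the 5 sites called 0 of 19 members, as it called 0% of all tested genes, and edgeR gave 0 of 19 members and 266 of 15573 genes an unadjusted p under 0.05. In limma 0 of 19 members and 8 genes passed after adjustment, and 0 members had an unadjusted p under 0.05. Lung and ovary have 1 line each, so the test has little to work with. The lowest unadjusted p were 0.150 for Dtx3l, 0.365 for Oasl2, 0.373 for Ifi211 and 0.393 for Stat2. Lines of the same organ from different mice were far apart for some members and close for others. In the diaphragm lines of mice 5 and 6, Stat2 was at 32.5 and 7.31 CPM and Irf7 at 23.4 and 2.95. The diaphragm line of mouse 5 is metastasis line 4, with 72.7% of its counts in ribosomal RNA genes. In the liver lines of mice 1 and 6, Ifi211 was at 4.44 and 0.802 CPM. In those liver lines Irf9 was at 5.92 and 5.92 CPM and Irf7 at 2.32 and 2.53. The fall of Ifit2 against tumor lines held the same sign at all sites, with log2 fold changes of -1.67 in peritoneum, -3.32 in liver, -2.28 in diaphragm, -2.81 in lung and -1.58 in ovary.

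The remaining pathway was examined through lists chosen by function. The interferon genes themselves gave few or no counts, and of 10 ligands none passed the count filter. Ifna1, Ifna2, Ifna4, Ifna5, Ifnl2 and Ifnl3 had 0 counts in all 16 lines, Ifnb1 had 2 counts in total, Ifnk 21, Ifng 36 and Ifne 68. The Ifng counts were mostly from mouse 5, with 18 in metastasis line 5 (0.393 CPM) and 4 in metastasis line 4 (0.517 CPM).

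Receptors and kinases were present in every line: all 14 of the list were tested, 3 were higher and 1 was lower in metastasis lines, where 6.59% of all tested genes were higher and 9.92% lower. Socs1 and Socs3, feedback inhibitors of Janus kinases, rose with log2 fold changes of 1.49 and 0.81 (edgeR adjusted p = 0.0163 and 0.00982), both higher in 6 of 6 mice. Socs1 went from 1.13 ± 0.838 CPM (SD, n = 7) to 2.86 ± 0.818 (SD, n = 9). Ifngr2, a chain of the interferon gamma receptor, rose by 0.69 on the log2 scale (adjusted p = 0.0176), and Ifnar2, a chain of the type I receptor, fell by 0.75 on the log2 scale (adjusted p = 0.0445).

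Of 18 genes of nucleic acid sensing, all tested, 1 was higher and 2 were lower, close to the 6.59% and 9.92% of all tested genes. Trim25, a ligase that activates RIG-I, rose by 0.49 on the log2 scale (edgeR adjusted p = 0.0190, higher in 6 of 6 mice). Tlr3, an endosomal receptor of double-stranded RNA, fell by 0.52 (adjusted p = 0.0237, lower in 6 of 6), and the kinase Ikbke fell by 0.72 (adjusted p = 0.0457, lower in 4 of 6). Samhd1, a hydrolase of nucleotides, had 0.54 (adjusted p = 0.0592).

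A further 47 interferon induced genes outside the 33 members had 28 tested, with 1 higher and 4 lower, against 6.59% and 9.92% of all tested genes. Trim21, an intracellular antibody receptor, fell by 1.14 on the log2 scale (edgeR adjusted p = 0.00641) and was lower in 6 of 6 mice, from 6.63 ± 2.19 CPM (SD, n = 7) to 3.13 ± 1.31 (SD, n = 9). Ifitm3, a barrier to viral entry, fell by 1.56 (adjusted p = 0.0428), the galectin Lgals9 by 1.06 (adjusted p = 0.0473) and the GTPase Irgm1 by 0.95 (adjusted p = 0.0491), the last named after its value was seen. Oas3 rose by 2.72 on the log2 scale (edgeR adjusted p = 0.0303, higher in 6 of 6 mice). It went from at most 0.392 CPM in tumor lines to a range of 0.122 to 9.43 in metastasis lines. The top value was again in metastasis line 4 (72.7% ribosomal RNA). Oas3 passed the count filter mainly through its metastasis lines, with 295 counts against 42 in tumor lines. Its call is therefore partly fixed by the filter and supports nothing. The called members of that list moved in both directions, with Oas3 the only one higher, and the median log2 fold change of its tested genes was -0.03. Of 12 genes of antigen processing that respond to interferon gamma, 7 were tested, and the lowest edgeR adjusted p was 0.0675, for the checkpoint ligand Cd274, with a log2 fold change of 1.04.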

How the data were processed

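RNA was sequenced from 16 organoid lines. The submitters' processing notes name FastQC 0.11.8, STAR 2.6.0c, RSEM 1.3.1 and the build GRCm38.p6. Per the labels' protocols, libraries were stranded total RNA after ribosomal RNA depletion. Per the file headers, the gene table of each line, as deposited, gives expected counts (fractional read estimates) and TPM. The strand setting of the counting is not given in the sources used here. RSEM shares reads among similar genes, which makes the levels of close paralogs uncertain.

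Expected counts were rounded and fitted in edgeR 4.0.16 (R 4.3.3) with TMM factors, filterByExpr by stage and a term per mouse and for stage. Benjamini-Hochberg adjustment covered 15573 genes, with a threshold of 0.05, and adjusted p-values come from edgeR where no tool is given. Sites and mice were tested in fits of the same kind. DESeq2 1.42.0, limma 3.58.1 on log2(TPM + 1), other scalings and filters, summed counts per mouse and stage, and leaving out each line or mouse were alternatives. CPM are on TMM-scaled library sizes, and log2 CPM used a prior count of 2. Intervals are exact Poisson or binomial at 95% and cover counting error only. Symbols and positions came from GENCODE M21.

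The members and the pathway lists were chosen with earlier results of these data known. Values in every line, or the lowest, median and highest, are given for members past the stage threshold, up to 4 members with the lowest p of the mouse test and of the site test, and Isg15, Ifit1, Ifit2, Ifih1, Stat2, Irf7, Irf9, Usp18, Bst2, Gbp2, Ifi211 and Ifi204. Up to 4 genes with the lowest stage p are named from each pathway list, and some genes of these lists are not reported here. The mouse labels pair the lines: centered on the stage means, log2 CPM of lines from 1 mouse had a mean correlation of 0.261, and that of lines from different mice was -0.116. No 2 libraries agreed within counting noise, the lowest chi-square per gene over 120 pairs of lines being 33.4.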

Additional observations from a re-analysis of the deposited data

Results flagged for a closer look

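Values far from the rest of their group were looked for in 34 groups of 7 or 9 lines, by the gap to the nearest line as a share of the group's range, and 7 were found. Chance alone gives about 1 in 20. Of the 7, 5 were tumor line 5 of mouse 5, which was above the other 6 tumor lines in log2 CPM of Bst2 (4.20), Irf9 (3.58) and Oasl2 (0.134), in the mean of all 33 members (0.398) and in the mean of the 29 members outside the HIN-200 family (0.914). These 5 share 1 library and are not separate observations. Ifit2 in tumor line 6 was far below the other tumor lines, at -0.339 log2 CPM. Stat2 in metastasis line 4 was far above the other metastasis lines, at 5.03 log2 CPM, in the library with 72.7% of its counts from ribosomal RNA genes. The part of that share in the Stat2 value was not tested.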

How the results depend on the processing

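The number of genes called by stage, 2571, was 3968 with DESeq2, 1184 with limma on log2(TPM + 1), 794 without the 2 libraries richest in ribosomal RNA, and 766 (without mouse 5) to 3910 (without tumor line 6) when a line or mouse was left out. Members lower in metastasis lines, 2 in the fit reported, were 1 in the fit with no replicate block for mouse, which called 2219 genes, 3 with no count filter (Ifi44 added), 1 in limma, 1 without the 2 libraries, and 1 to 2 when a line or mouse was left out. Members higher, also 2, were 5 with no count filter, 3 without the 3 ribosomal RNA genes (Mx1 added), 1 with a filter of 1 CPM in 7 lines, which left Ifi211 untested, 1 without the 2 libraries, and 1 to 2 when a line or mouse was left out. Members called by mouse, 0 in the fit reported, ran from 0 to 4 when a line was left out, and members called by site stayed at 0. The mean difference over the 33 members, 0.359, was 0.0511 on log2(TPM + 1). It was -0.02 without the HIN-200 members, an alternative chosen after the data were seen. The log2(TPM + 1) scale compresses differences between values under 1 TPM, and 22 of 33 members had a median under 1 TPM. Ribosomal RNA also took 69.8% of the TPM of metastasis line 4. The part of either in the TPM result was not tested. Of the 4 called members, Ifit2 passed in 31 of 32 alternatives and Ifih1 in 11 of 32. Ifi211 passed in 31 of 31 and Ifi204 in 24 of 32, but both entered the tested set through their metastasis lines. Their tallies are therefore partly fixed by the filter and support nothing. None of the 4 called members changed sign between settings. The cause of these shifts was not tested beyond what each alternative left out. Depth limits the 14 members under the filter most, in metastasis line 4 above all.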

Other observations

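Aim2, a HIN-200 relative that forms an inflammasome on cytosolic DNA and is not among the 33 members, was looked at after its values were seen. It had 34 counts in the 7 tumor lines and 1547 in the 9 metastasis lines, a ratio per scaled library of 41.5 (95% counting interval 29.5 to 60.1), but fell under the count filter because few lines held it. Most counts were in metastasis lines 5 (14.6 CPM), 4 (15.9 CPM), 2 (11.7 CPM) and 9 (7.13 CPM), with 19 counts in metastasis line 1 and 4 in metastasis line 3. Metastasis lines 6, 7 and 8 of mouse 6 had 0 counts of Aim2, although Ifi211 and Ifi204 were found in all 3. Tumor line 5 held 28 of the 34 tumor counts.

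Mx1, a dynamin-like antiviral GTPase under the count filter, was higher in metastasis lines of 6 of 6 mice. Its tumor lines ran from 0.0794 to 0.207 CPM and its metastasis lines from 0.131 to 2.14, the top in metastasis line 2 of mouse 3. With no count filter edgeR called it higher, together with Ifi203, Ifi205, Ifi211 and Ifi204, and called Ifi44 lower. With the filter kept and the 3 ribosomal RNA genes left out, edgeR also tested Mx1 and called it higher. It passed the filter there mainly through its metastasis lines, with 226 counts against 47 in tumor lines. That call is therefore partly fixed by the filter and adds no support. Values of these low genes rest on few counts in most lines.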
